A study of Mus musculus with 10 samples.

Results

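The genes described here handle cellular iron: 10 genes for its uptake, transport, storage, export and sensing, taken by gene symbol from a list of 10 names. All 10 were found among the 25178 genes of the deposited count table, and all 10 passed the filter on low counts that left 14674 genes to be tested. They are the transferrin receptor Tfrc, the endosomal reductase Steap3, the iron transporters Slc11a2 and Slc40a1, heme oxygenase Hmox1, the ferritin chains Fth1 and Ftl1, the iron regulatory proteins Ireb2 and Aco1, and the iron-sensing ubiquitin ligase subunit Fbxl5. The study asked how hematopoiesis differs between the sexes, and sequenced RNA in bulk from bone marrow of 5 female and 5 male C57/BL6 mice at steady state, 1 library per mouse. C57/BL6 is an inbred laboratory strain, no transgene or treatment is named for either sex, and the age of the animals is not stated in the labels. Marrow came from 1 hindlimb, and cells with mature lineage markers were removed on magnetic beads, which leaves a mixture enriched for hematopoietic stem and progenitor cells.

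Iron reaches blood cell precursors as transferrin bound to its receptor, is reduced and pumped out of the endosome, and is then used for heme and iron-sulfur clusters or kept in ferritin shells. Ferroportin, the product of Slc40a1, is the exporter, and heme oxygenase frees iron from heme, above all in macrophages that clear old red cells. The 2 iron regulatory proteins bind stem-loops called iron-responsive elements when iron is scarce. Binding in a 5′ untranslated region (UTR) blocks translation and binding in the 3′ UTR of Tfrc protects the mRNA from decay, so RNA counts can show the second effect and not the first.

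The elements of the member mRNAs are shown because they divide the genes into those kept from translation and those stabilised by the same proteins. A search of the transcript sequences of GENCODE vM21 (GRCm38) asked, on the transcript strand of each UTR, for a bulged C, 5 bases, the loop CAGTG followed by A, C or T, and 5 bases of which at least 4 pair with the first 5. Each is written 5′ to 3′ in DNA letters with the 5 flanking bases on either side, the place of the lower stem, and capitals mark the bulged C and the loop.
Fth1, 5′ UTR, plus strand, chr19:9982733-9982759: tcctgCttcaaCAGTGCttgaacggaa
Ftl1, 5′ UTR, minus strand, chr7:45459780-45459806: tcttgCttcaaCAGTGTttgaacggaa
Slc40a1, 5′ UTR, minus strand, chr1:45925466-45925492: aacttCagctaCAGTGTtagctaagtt
Tfrc, 3′ UTR, plus strand, chr16:32631220-32631246: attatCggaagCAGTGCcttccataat
Tfrc, 3′ UTR, plus strand, chr16:32631599-32631625: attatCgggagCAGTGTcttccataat
Tfrc, 3′ UTR, plus strand, chr16:32631664-32631690: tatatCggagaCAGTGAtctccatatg
Tfrc, 3′ UTR, plus strand, chr16:32631711-32631737: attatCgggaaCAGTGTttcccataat
Slc11a2, 3′ UTR, minus strand, chr15:100395154-100395180: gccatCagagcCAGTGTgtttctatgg

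Of the 10 genes 5 held these letters in a UTR. Fth1, Ftl1 and Slc40a1 carried 1 element each in the 5′ UTR and Tfrc carried 4 in the 3′ UTR, all with 5 of 5 upper-stem bases paired, while the Slc11a2 element left 1 unpaired and stood in 1 of 6 coding transcripts. Counted position by position, the flanking bases of the Slc11a2 element paired at 1 of 5 positions, against 4 or 5 in the others. This count allows no extra base on either side, so it does not show that the Slc11a2 element lacks a lower stem. The Slc40a1 element was in 1 of 4 coding transcripts, those of Tfrc in 1 of 3, that of Ftl1 in 1 of 2 and that of Fth1 in 4 of 5. Each of the 5 genes thus also has annotated transcripts in which these letters were not found. Transcripts annotated with incomplete ends were not excluded, so a missing match does not show that an mRNA lacks the element. Among 21901 protein-coding genes, 0.105% held the fully paired letters in a 5′ UTR and 0.457% in a 3′ UTR, and with 1 unpaired base allowed 0.653% and 3.03% did. A match describes the letters and is not evidence of binding.

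The female libraries held 20754101 to 24366241 counts and the male libraries 21136932 to 24759687. The 10 stem and progenitor markers fixed for the check, among them Kit and Cd34, were all above the filter, at a summed 523 to 693 CPM (read counts scaled to a common library total) in the females and 415 to 673 CPM in the males. Red cell, neutrophil and B lineage markers were present as well. The summed erythroid markers, mostly hemoglobin, lay between 8798 and 13829.5 CPM in the females and between 15892 and 52698 CPM in the males, without overlap. Of the 15 markers tested, 12 had negative and 3 positive log2 fold changes of female against male (48.0% of all genes were positive). Hba-a1 was at -1.86 and Hbb-bs at -2.25. Klf1 (0.05), Gata1 (-0.01), Epor (0.11) and Ermap (0.23) overlapped between the sexes, so the sum does not stand for each marker. The mature neutrophil sum was at 260 to 967 CPM in the females and 211 to 8729 CPM in the males. Male replicates 1 and 2 stood apart on the first principal component (scores 35.3 and 36.6 against at most 6.04 in the other libraries). In male replicate 2 genes with a greater length of all annotated exons together lay lower relative to their mean over the mice. The rank correlation of this deviation with that length, across genes, was -0.506, against -0.297 to 0.369 in the other libraries. In bulk RNA, fewer cells of a type and less RNA per cell cannot be told apart.

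No iron gene passed the test between the sexes at an adjusted p under 0.05 (edgeR quasi-likelihood test with Benjamini-Hochberg adjustment over all genes, adjusted p between 0.506 and 0.982). Among all genes 0.0545% were called, 0.0204% as higher and 0.0341% as lower in females, so few calls were made in this comparison at all. By DESeq2 0 of the 10 were called either, against 0.361% of all genes. At an unadjusted p under 0.05 stood 2 of the 10, Ftl1, which was lower in females, and Aco1, which was higher; of all genes 9.17% did, 5.41% lower and 3.76% higher in females. The fold changes were positive for 6 and negative for 4, with a median log2 value of 0.11, and over all genes tested 48.0% were positive and the median was -0.01. For none of the 10 did every female lie above or below every male, which held for 1.06% and 0.865% of all genes.

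**Figure D1:**
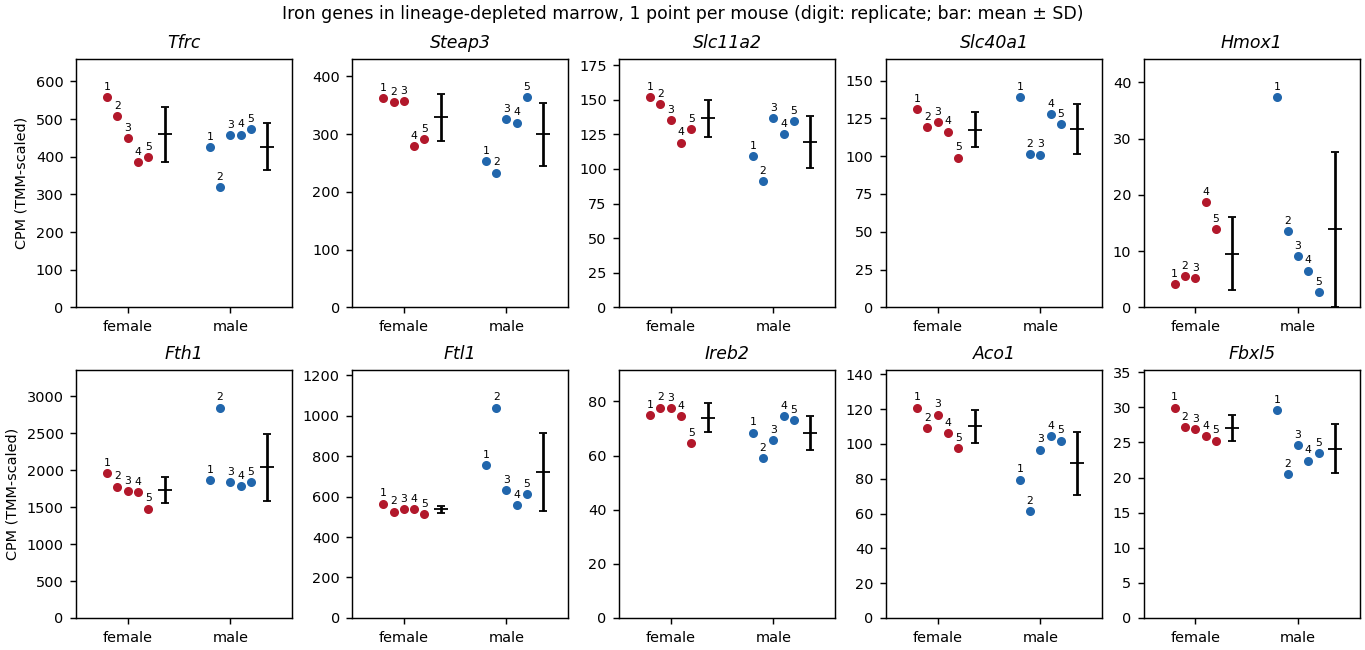
Expression of the 10 iron genes in CPM on linear axes from 0, with 1 point per mouse, its replicate number above it, and the mean ± SD of the 5 females and 5 males of each gene. Ftl1 runs from 514 to 565 CPM in the females and from 559.5 to 1040.1 CPM in the males, and Hmox1 varies 13.5-fold over the 10 mice.

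Levels between genes were compared per kilobase (kb) of the longest transcript of the best APPRIS level in GENCODE vM21. Fth1 stood highest at a mean of 1260.4 CPM per kb over the 10 mice, followed by Ftl1 at 649 CPM per kb. Their ranges overlapped, from 992 to 1907 and from 531 to 1074 CPM per kb. Tfrc followed at 90.7 CPM per kb, Steap3 at 60.9, Slc11a2 at 42.3, Slc40a1 at 34.9, Aco1 at 25.9, Ireb2 at 12.3, Fbxl5 at 8.95 and Hmox1 at 7.45 CPM per kb. Neighbours in this order overlapped in range except for Ftl1 and Tfrc (highest 114 CPM per kb) and for Aco1 (lowest 16.0 CPM per kb) and Ireb2 (highest 13.5 CPM per kb). Per kilobase of all annotated exons the ferritins again led, but Aco1 (22.1 CPM per kb) came above Slc11a2 (20.1) and Slc40a1 (13.1), and Fbxl5 (2.63) below Hmox1 (6.68), so the order below Steap3 depends on the length used.

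The 3 uptake genes averaged higher in females by small amounts, none of which passed the test. Tfrc, the receptor that takes up transferrin-bound iron (chromosome 16: 32608920 to 32632794), was at 559, 507, 449, 387 and 399 CPM in the females and at 425, 318, 457, 459 and 474 CPM in the males. The sexes overlapped, with 2 females above every male and male replicate 2 below every other mouse. Its log2 fold change was 0.11 (SE 0.13, 95% interval of the fit -0.18 to 0.40, edgeR adjusted p = 0.681). With male replicate 2 left out it was 0.020, and with male replicate 1 left out too it turned to -0.013.

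Steap3, the ferrireductase that reduces iron in the endosome of red cell precursors (chromosome 1: 120190757 to 120272705), was at 363, 355, 357, 279 and 291 CPM in the females and at 254, 233, 326, 319.7 and 364 CPM in the males. Male replicates 1 and 2 lay below every female and the other 3 males overlapped the females, and its log2 fold change was 0.14 (SE 0.13, interval -0.15 to 0.43, adjusted p = 0.612 in edgeR). For Steap3 it was 0.059 with male replicate 2 left out and -0.034 with both of these males left out. Slc11a2, which carries ferrous iron out of the endosome (chromosome 15: 100387898 to 100425072), was at 119 to 152 CPM in females, with a median of 135, and at 91.3 to 137 CPM in the males, with a median of 125. It averaged 136 ± 13.4 CPM in the females and 119 ± 19.0 CPM in the males (SD, n = 5 each). Here too only male replicates 1 and 2 lay below all females, and the log2 fold change was 0.19 (SE 0.12, adjusted p = 0.511 in edgeR), or 0.11 with male replicate 2 left out and 0.044 with both of these males left out.

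The exporter showed the smallest difference of the 10. Slc40a1 (chromosome 1: 45908068 to 45926523) was at 131, 119, 122, 116 and 99.0 CPM in the females and at 139, 101, 101, 128 and 121 CPM in the males. The highest mouse was male and the lowest female, with the rest interleaved. The log2 fold change was -0.01 (SE 0.11, edgeR adjusted p = 0.982), with a 95% interval from -0.25 to 0.24.

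Ferritin mRNAs were the most abundant of the group and averaged lower in females without passing the test. Ftl1, the light chain that helps iron enter the mineral core (chromosome 7: 45457944 to 45459884), was at 565, 526, 538, 539 and 514 CPM in the females and at 755, 1040.1, 633, 559.5 and 613 CPM in the males. Only female replicate 1 reached above the lowest male, male replicate 4. The log2 fold change was -0.43 (SE 0.15, interval -0.75 to -0.10, unadjusted p = 0.0144, edgeR adjusted p = 0.506). Females were also closer to each other, with a coefficient of variation of 3.51% against 26.8% in the males. The male value includes male replicate 2 at 1040.1 CPM, while the other males lay between 559.5 and 755 CPM. The difference in spread was not tested.

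Fth1, the heavy chain with the ferroxidase site (chromosome 19: 9980598 to 9985098), was at 1967, 1778, 1713, 1702 and 1482 CPM in the females and at 1868, 2849.7, 1840.3, 1789 and 1842 CPM in the males. Apart from male replicate 2 the males lay between 1789 and 1868 CPM, and 4 of 5 females lay below them. The log2 fold change was -0.24 (SE 0.14, interval -0.54 to 0.06, adjusted p = 0.506 in edgeR). Together the ferritin genes took 0.232% ± 0.0150 of all counts in the females and 0.266% ± 0.0441 in the males (SD, n = 5 each).

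Both ferritin differences were smaller once male replicate 2 was left out, at a log2 fold change of -0.25 for Ftl1 and -0.09 for Fth1. Leaving out male replicate 1 as well gave -0.17 for Ftl1 and -0.08 for Fth1. In male replicate 2 Ftl1, Fth1 and Hmox1, whose transcripts are the shortest of the 10 (968, 1494 and 1569 bases), lay 0.76, 0.62 and 0.62 above the mean of the 10 mice on the log2 scale. The other 7 genes, with transcripts of 2858 to 5770 bases, had values of -0.21 to -0.67. The erythroid marker sums given above, mostly hemoglobin, were higher in the males as well. With that sum Ftl1 had Pearson's r = 0.744 (permutation p = 0.0156, adjusted p = 0.154) and Spearman's rho = 0.794 (permutation p = 0.00926, adjusted p = 0.0926). For Fth1 r was 0.568 (permutation p = 0.0889, adjusted p = 0.254) and rho 0.661 (permutation p = 0.0439, adjusted p = 0.188). Without male replicates 1 and 2 r was 0.509 for Ftl1 and 0.516 for Fth1. All of these values pool the sexes, which the erythroid sum separated, so they mix differences between sexes with those between mice. The part of transcript length and of red cell RNA in these differences was not tested.

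**Figure D2:**
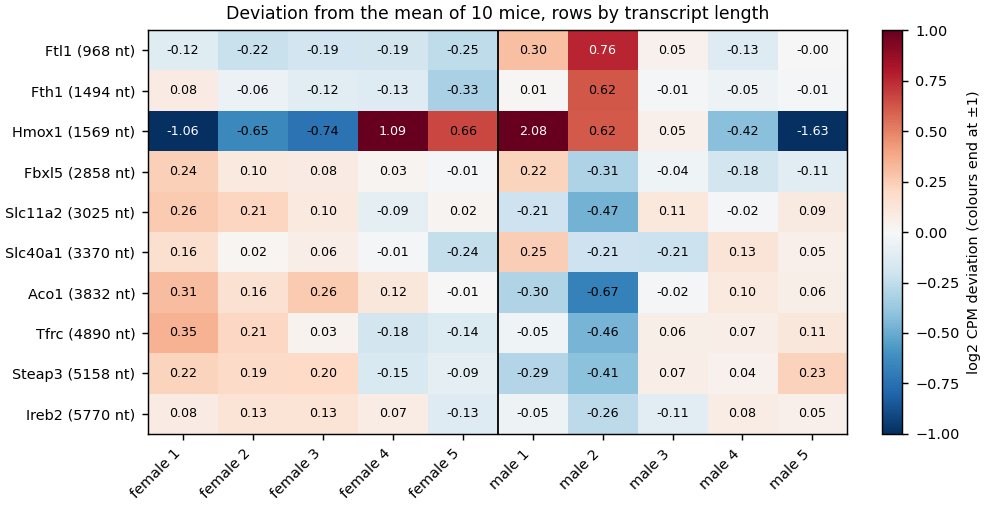
Deviation of each gene's log2 CPM from its mean over 10 mice, females left of the line and males right of it, with rows ordered from the shortest to the longest transcript (length in nucleotides, nt). In male replicate 2 the top 3 rows are positive (0.76, 0.62 and 0.62) and the 7 rows below are negative, and in the Hmox1 row values run from -1.63 to 2.08.

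Processed copies of the light chain gene can share its reads. Ftl2-ps, Ftl1-ps1 and Ftl1-ps2, as GENCODE vM21 names them, held 7.08%, 3.57% and 0.241% as many counts as Ftl1, and their log2 fold changes were -0.27, -0.48 and -0.46 (edgeR adjusted p at least 0.506). Their signs were that of Ftl1, and whether their reads came from Ftl1 cannot be told from the counts. The annotated copies of Fth1 that were in the table, Fth-ps3 and Fth-ps2, had 16 and 3 counts in all 10 libraries.

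Hmox1, which breaks heme down and releases its iron (chromosome 8: 75093621 to 75100589), varied most of the 10 genes and did so in both sexes. It was at 4.17, 5.57, 5.21, 18.8 and 13.96 CPM in the females and at 37.4, 13.5, 9.09, 6.53 and 2.77 CPM in the males. Both the highest and the lowest mouse were male, and female replicates 4 and 5 each lay above 4 of the 5 males. The log2 fold change was -0.54 (SE 0.62, interval -1.88 to 0.80, edgeR adjusted p = 0.662). It turned to 0.26 without male replicate 1.

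Hmox1 moved with the macrophage markers from mouse to mouse. The 14 markers, among them Vcam1, Adgre1, Cd5l and the complement genes C1qa, C1qb and C1qc, summed to 35.1, 34.5, 45.7, 80.7 and 74.98 CPM in the females and to 133, 43.6, 45.4, 42.9 and 26.1 CPM in the males. None of the 14 was without counts in the series, 11 passed the low-count filter, and 0 were called between the sexes. Cd163, also on the list, varied little, at 12.6 ± 1.84 CPM in the females and 10.6 ± 1.95 CPM in the males (SD). It was highest in female replicate 4 and lowest in male replicate 2, so the sum does not stand for each marker. The same 3 mice, female replicates 4 and 5 and male replicate 1, were highest for Hmox1 and for this sum, and male replicate 5 was lowest for both. Over the 10 mice Pearson's r of the log2 values was 0.935 (permutation p = 8.00e-05, adjusted p = 0.00480 over 60 relations of 10 genes with 6 marker lists) and Spearman's rho was 0.842 (permutation p = 0.00346, adjusted p = 0.0655). Without the 2 mice farthest from the median marker sum r was 0.828, and without male replicates 1 and 2 it was 0.957. The summed monocyte markers, at 268 to 482 CPM in the females and 341 to 821 CPM in the males, also followed Hmox1 (r = 0.873, permutation p = 6.10e-04, adjusted p = 0.0183; rho = 0.891, permutation p = 0.00106, adjusted p = 0.0636; r = 0.902 without the 2 farthest mice). By Pearson's r 3 of the 60 relations passed, these 2 and a negative one of Fth1 with stem and progenitor markers (r = -0.885, permutation p = 0.00180, adjusted p = 0.0360; rho = -0.661, permutation p = 0.0433, adjusted p = 0.188), which was -0.487 without the 2 farthest mice. Which cells the Hmox1 RNA came from was not tested.

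**Figure D3:**
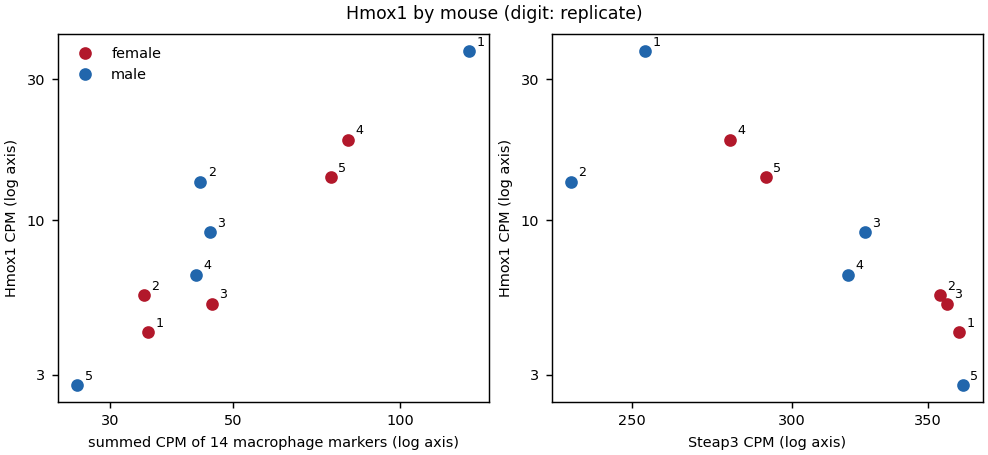
Hmox1 in CPM for each mouse against the summed CPM of 14 macrophage markers (left) and against Steap3 in CPM (right), all on log axes, females and males in separate colours with replicate numbers. Hmox1 and the marker sum are both highest in male replicate 1 (37.4 and 133 CPM) and both lowest in male replicate 5 (2.77 and 26.1 CPM), while Hmox1 is high where Steap3 is low.

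Of the iron regulatory proteins, Aco1 was the one that reached an unadjusted p under 0.05. Aco1, the cytosolic aconitase that binds iron-responsive elements once it loses its iron-sulfur cluster (chromosome 4: 40143081 to 40198338), was at 121, 109, 117, 106 and 97.4 CPM in the females and at 79.5, 61.2, 96.7, 105 and 102 CPM in the males. Male replicates 1, 2 and 3 lay below every female. The log2 fold change was 0.31 (SE 0.14, interval 0.01 to 0.61, unadjusted p = 0.0457, edgeR adjusted p = 0.506), and it was 0.20 with male replicate 2 left out and 0.12 with male replicate 1 left out too.

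Ireb2, iron regulatory protein 2, which is degraded when iron is plentiful (chromosome 9: 54863789 to 54912530), was at 74.9, 77.7, 77.7, 74.6 and 64.7 CPM in the females and at 68.5, 59.0, 65.7, 74.6 and 73.2 CPM in the males. The sexes overlapped, with 3 females above every male. It varied least of the 10 genes, 1.32-fold between the highest and the lowest mouse, and the edgeR log2 fold change was 0.12 (SE 0.09, adjusted p = 0.553), or 0.069 with male replicate 2 left out and 0.052 with male replicate 1 left out too. Fbxl5, the ligase subunit that marks it for degradation (chromosome 5: 43744615 to 43821638), was at 29.98, 27.2, 26.9, 25.9 and 25.3 CPM in the females and at 29.6, 20.5, 24.7, 22.4 and 23.5 CPM in the males. The 4 lowest values were male and the second highest was male too, and the log2 fold change was 0.16 (SE 0.11, adjusted p = 0.517 in edgeR). For Fbxl5 it was 0.11 without male replicate 2 and 0.24 without male replicate 1 (edgeR unadjusted p = 0.0270, adjusted p = 0.628). Without both males it was 0.20 (edgeR unadjusted p = 0.0361, adjusted p = 0.834).

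**Figure D4:**
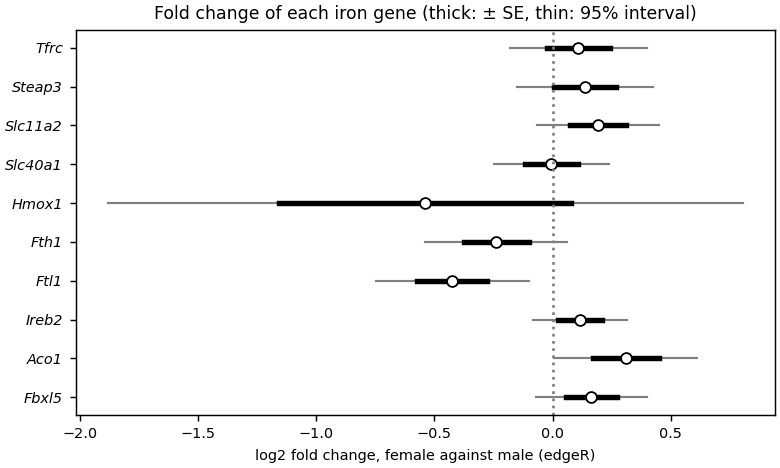
Log2 fold change of female against male for each of the 10 genes in order of role, from uptake at the top to sensing at the bottom (circle), with ± SE (thick line) and the 95% interval of the edgeR fit (thin line). The intervals of Ftl1 (-0.75 to -0.10) and Aco1 (0.01 to 0.61) exclude 0 before adjustment, and that of Hmox1 (-1.88 to 0.80) is the widest.

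Ratios within a library do not depend on its scaling, and 3 were tested by exact two-sided permutation over all 252 assignments of 5 of the 10 mice. The count ratio of Ftl1 to Fth1 was 0.287, 0.296, 0.314, 0.317 and 0.347 in the females and 0.404, 0.365, 0.344, 0.313 and 0.333 in the males. The difference of female minus male means was -0.17 on the log2 scale, with overlap between the sexes (exact permutation p = 0.0794, adjusted p = 0.0873 over the 3 ratios). It was -0.082 with male replicates 1 and 2 left out.

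The count ratio of Tfrc to the sum of both ferritins, uptake over storage, was 0.221, 0.220, 0.199, 0.173 and 0.200 in the females and 0.162, 0.0819, 0.185, 0.195 and 0.193 in the males. In 4 of 5 females it lay above every male, and the mean difference was 0.37 on the log2 scale (exact permutation p = 0.0873, adjusted p = 0.0873). It was 0.14 without male replicate 2, whose ratio was the lowest, and 0.078 with male replicate 1 left out too.

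The count ratio of Ireb2 to Aco1 was 0.619, 0.714, 0.664, 0.703 and 0.664 in the females and 0.861, 0.964, 0.679, 0.713 and 0.717 in the males, a difference of -0.21 on the log2 scale (exact permutation p = 0.0476, adjusted p = 0.0873). The higher values were those of male replicates 1 and 2; the difference was -0.14 with male replicate 2 left out and -0.07 with both left out. None of the 3 ratios passed after adjustment.

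**Figure D5:**
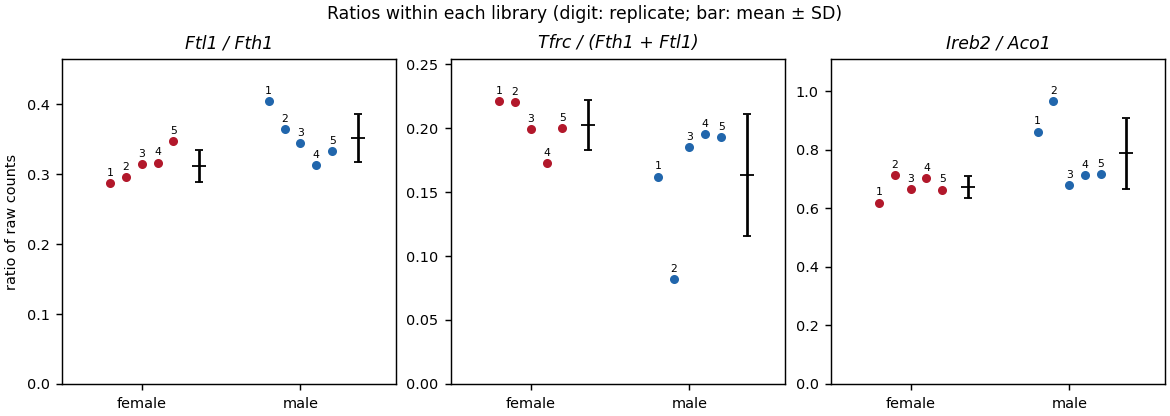
Ratios of raw counts within each library on linear axes from 0, for the ferritin chains (left), transferrin receptor over ferritin (middle) and the iron regulatory proteins (right), 1 point per mouse with its replicate number and the mean ± SD of each sex. Female and male points overlap in all 3 panels, and male replicate 2 is lowest in the middle panel (0.0819) and highest in the right one (0.964).

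Across mice the 3 genes of endosomal iron uptake varied together. Of 45 pairs of the 10 genes, 11 passed at an adjusted p under 0.05 by Pearson's r of log2 CPM. The share of passing pairs among all genes was not determined, so the count is not read as particular to iron genes. The genes most like each member, listed below, reached r of 0.910 to 0.994. Slc11a2 and Steap3 had r = 0.928 (permutation p = 7.00e-05, adjusted p = 0.00315) and rho = 0.830 (permutation p = 0.00424, adjusted p = 0.0409), with r = 0.800 without male replicates 1 and 2, the farthest from the median of Slc11a2. Tfrc and Steap3 had r = 0.866 (permutation p = 6.30e-04, adjusted p = 0.00945) and rho = 0.830 (permutation p = 0.00455, adjusted p = 0.0409), with r = 0.762 without the 2 mice farthest from the median of Tfrc. Tfrc and Slc11a2 had r = 0.906 (permutation p = 5.10e-04, adjusted p = 0.00945) and rho = 0.818 (permutation p = 0.00599, adjusted p = 0.0449), with r = 0.690 without the 2 farthest mice. Without male replicates 1 and 2 these 2 pairs were at 0.851 and 0.892. Hmox1 ran opposite to Steap3 (r = -0.861, permutation p = 0.00144, adjusted p = 0.0108; rho = -0.915, permutation p = 5.20e-04, adjusted p = 0.0234), with r = -0.840 without the 2 farthest mice and -0.947 without male replicates 1 and 2.

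The uptake genes also ran against the monocyte marker sum by rank, without passing over the 60 relations. For Tfrc rho was -0.818 (permutation p = 0.00509) and r was -0.490 (permutation p = 0.154, adjusted p = 0.343). For Slc11a2 rho was -0.818 (permutation p = 0.00546) and r was -0.623 (permutation p = 0.0669, adjusted p = 0.211). For Steap3 rho was -0.830 (permutation p = 0.00419) and r was -0.760 (permutation p = 0.00707, adjusted p = 0.106), and the adjusted p of rho was 0.0655 for each of the 3. Without the 2 mice farthest from the median monocyte sum r was -0.773 for Tfrc, -0.594 for Slc11a2 and -0.819 for Steap3. With the macrophage sum Steap3 had r = -0.673 (permutation p = 0.0300, adjusted p = 0.154; rho = -0.673, permutation p = 0.0386, adjusted p = 0.188), with r = -0.491 without the 2 farthest mice and -0.917 without male replicates 1 and 2. The part of these cells in the shared variation of the uptake genes was not tested.

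Ireb2 and Aco1, the iron regulatory protein genes, had r = 0.853 (permutation p = 0.00257, adjusted p = 0.0150) and rho = 0.891 (permutation p = 0.00114, adjusted p = 0.0256), with r = 0.738 without the 2 farthest mice and 0.777 without male replicates 1 and 2. Aco1 was tied to the uptake genes as well, less so without those males. With Slc11a2 it had r = 0.907 (permutation p = 0.00124, adjusted p = 0.0108) and rho = 0.685 (permutation p = 0.0343, adjusted p = 0.171), and r = 0.496 without the 2 farthest mice, which were those males. With Steap3 it had r = 0.861 (permutation p = 9.10e-04, adjusted p = 0.0102) and rho = 0.673 (permutation p = 0.0380, adjusted p = 0.171), and r = 0.528 without the same mice. With Tfrc it had r = 0.793 (permutation p = 0.00796, adjusted p = 0.0358) and rho = 0.600 (permutation p = 0.0728, adjusted p = 0.221), with r = 0.274 without the 2 mice farthest from the median of Tfrc and 0.560 without male replicates 1 and 2.

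The remaining 3 of the 11 pairs all held Ftl1 and were weaker without those males. Fth1 and Ftl1 had r = 0.891 (permutation p = 0.00352, adjusted p = 0.0176) and rho = 0.867 (permutation p = 0.00207, adjusted p = 0.0310), but r = 0.482 without the 2 mice farthest from the median of Fth1 and 0.630 without male replicates 1 and 2. Ftl1 and Aco1 had r = -0.924 (permutation p = 0.00266, adjusted p = 0.0150) and rho = -0.612 (permutation p = 0.0673, adjusted p = 0.221), and r = -0.295 without male replicates 1 and 2, which were also the 2 farthest mice. Slc11a2 and Ftl1 had r = -0.822 (permutation p = 0.00989, adjusted p = 0.0405) and rho = -0.394 (permutation p = 0.262, adjusted p = 0.454), and r = 0.134 without the same mice. The sign was kept without male replicates 1 and 2 in 32 of the 45 pairs.

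As a description, the genes most like each member over the 10 libraries were taken from 8469 genes with at least 10 CPM, up to 2 with the largest Pearson's r each. For Steap3 Sppl2b is given (r = 0.975), and for Tfrc they were Retreg3 (0.973) and Crat (0.965). They were Rab35 (0.984) and Samd4b (0.978) for Slc11a2, Stimate (0.951) and Serinc1 (0.927) for Slc40a1, Skap2 (0.946) and Smim3 (0.945) for Hmox1, and Cul4a (0.984) and Septin8 (0.983) for Aco1. They were Gins4 (0.994) and Gstm5 (0.989) for Fth1, Selenof (0.992) and Ppp1ca (0.989) for Ftl1, Mcph1 (0.966) and G2e3 (0.959) for Ireb2, and Tmco6 (0.967) and Snapc2 (0.910) for Fbxl5. Without male replicates 1 and 2 these values lay between 0.884 and 0.991. The libraries share their scaling and the length trend above, and the largest values among so many genes are high by selection.

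The other genes of iron metabolism gave 0 calls in any of 7 lists. Of 16 tested genes of uptake and transport 4 stood at an unadjusted p under 0.05 (9.17% of all genes did), with a list median of -0.06. Lactoferrin Ltf, a neutrophil granule protein, was at 37.1, 63.3, 140.5, 40.5 and 94.1 CPM in the females and at 1242, 286, 206, 233 and 29.2 CPM in the males. The siderophore binder Lcn2 was at 21.3 to 82.9 CPM in the females, with 623 CPM in male replicate 1, 16.3 CPM in male replicate 5 and 97.6 to 186 CPM in the other males. Male replicate 1 was highest by far for both and male replicate 5 lay below every female. The same 2 mice were highest and lowest for the neutrophil marker sum, at 8729 and 211 CPM, of which Ltf is part; its part in these values was not tested. The mitochondrial iron importer Slc25a37 averaged 66.8 ± 17.1 CPM in the females and 98.7 ± 34.8 CPM in the males (SD, n = 5 each). Slc39a14, a zinc and iron transporter, averaged 6.71 ± 0.952 CPM in the females and 4.79 ± 1.47 CPM in the males, and the edgeR adjusted p of all 4 was 0.506. Of 9 storage, release and export genes 0 stood at an unadjusted p under 0.05 and 7 had negative values (median -0.08). The 3 smallest p values there belonged to the heme transporter Slc48a1 (log2 fold change -0.12) and the biliverdin reductase genes Blvra (-0.20) and Blvrb (-0.14).

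Among other mRNAs known for iron-responsive elements, the 2 with the largest differences ran in opposite directions. Epas1, a hypoxia-inducible factor, was at 2.47, 4.17, 5.00, 6.16 and 4.34 CPM in the females and at 1.85, 2.03, 1.24, 0.722 and 1.22 CPM in the males, so that every female lay above every male. Alas2, the first enzyme of heme synthesis in red cells, was at 35.9, 50.6, 55.2, 30.1 and 23.9 CPM in the females and at 299.9, 107, 67.9, 166 and 68.7 CPM in the males, with every female below every male; of all genes 1.06% and 0.865% separated the sexes in those directions. The log2 fold changes were 1.66 (SE 0.30, adjusted p = 0.170) and -1.86 (SE 0.40, adjusted p = 0.290) in edgeR for Epas1 and Alas2. Alas2 is one of the erythroid markers, whose sum, mostly hemoglobin, also separated the sexes, and the part of red cell RNA in its difference was not tested. Cdc42bpa, Cdc14a and App had log2 fold changes of 0.33, 0.06 and 0.03.
The search above found no match in Epas1, Cdc42bpa or App, and in Cdc14a a 3′ UTR match with 1 unpaired base. It found the fully paired letters in the 5′ UTR of Alas2, shown for comparison with those of ferritin.
Alas2, 5′ UTR, plus strand, chrX:150547459-150547485: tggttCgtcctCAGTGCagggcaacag

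Genes that build iron-sulfur clusters had 7 positive and 21 negative values of 28 tested, where 48.0% of all genes were positive, and a median of -0.15. At an unadjusted p under 0.05 stood 2 of the 28, a share no larger than the 9.17% of all genes. They were Cisd3 (log2 fold change -0.73) and the scaffold gene Iscu (-0.33), followed by Nfu1 (-0.31; edgeR adjusted p = 0.506 for all 3). Their summed level was 2394 to 2566 CPM in the females and 2500.2 to 3204 CPM in the males, with the highest value in male replicate 2. Regulators and targets of the BACH1 and NRF2 factors, which also act on Hmox1 and the ferritin genes, had a median of 0.07 and 0 of 15 at an unadjusted p under 0.05, with the smallest p for Osgin1 (-1.33), G6pdx (-0.18) and Txnrd1 (0.19). The repressor gene Bach1 was at 41.1 ± 2.14 CPM in the females and 36.9 ± 9.14 CPM in the males, and the activator gene Nfe2l2 at 150.3 ± 7.26 CPM in the females and 145 ± 10.3 CPM in the males (SD, n = 5 each).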

How the data were processed

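RNA was measured in 10 libraries, 5 female and 5 male mice. The authors deposited raw read counts per Ensembl gene, and per the submitters' processing notes featureCounts, STAR and DESeq were used with mm10 and GRCm38.p6; no source here gives the versions, the kit or the strand setting. A second deposited table of normalized values was not used. Gene names, coordinates and lengths come from GENCODE vM21 (GRCm38), which held 25116 of the 25178 genes. Genes were filtered with filterByExpr by sex, scaled by TMM and tested with the quasi-likelihood test of edgeR 4.0.16 (R 4.3.3, robust fit, sex as the only term) over 14674 genes, with Benjamini-Hochberg adjustment and calls at an adjusted p under 0.05. The SE is the fold change divided by the square root of F. CPM are counts over the TMM-scaled library total, with the SD over mice, and log2 CPM use a prior count of 2. Correlations used 100000 permutations (scipy 1.17.1). Alternatives were DESeq2 1.42.0, other scalings and filters, a replicate block, leaving out libraries and adding pseudogene counts. The edgeR fit was tested on simulated counts with changes of log2 1 and 2 in size. It recovered 86% and 100% of these, with 10 false among 196 calls. Smaller changes, such as those of the 10 members, were not simulated. Named genes are the 10 members, the 3 of smallest p in each other iron list and the 2 most like each member, of which 1 is not reported here. Slc39a14, Bach1, Nfe2l2, Smad4, Cdc14a and App fall outside that rule and were chosen after their values were seen. Members and lists were chosen with earlier results of these data known. Each mouse is 1 sample.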

Additional observations from a re-analysis of the deposited data

Results flagged for a closer look

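Single mice were compared with the other 4 of their sex for the 10 genes and the 3 ratios, 26 groups in all, and 2 stood apart. Chance alone sets apart about 1 group in 20. Fth1 in male replicate 2 was at 2849.7 CPM, while the other 4 males lay between 1789 and 1868 CPM. Ireb2 in female replicate 5 was at 64.7 CPM, while the other 4 females lay between 74.6 and 77.7 CPM.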

How the results depend on the processing

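The count of 0 called iron genes was the same under 7 other fits and 10 that each left out 1 library. At an unadjusted p under 0.05 the 2 iron genes became 1 with the replicate block and 1 to 2 leaving out 1 library. Over all genes the 8 calls became 53 by DESeq2, 5 with the replicate block and 12 without male replicates 1 and 2. The labels do not say that replicate numbers pair mice, and deviations of same-numbered mice correlated at -0.302 to -0.00710; in the paired fit the 3 ratios had exact p from 0.0625 (Ireb2 to Aco1), the smallest that 5 pairs allow, to 0.313, so none could pass. The log2 fold change of Hmox1 was 0.26 without male replicate 1 (-0.93 to 0.26 leaving out 1 library) and 0.63 without male replicates 1 and 2, where Steap3 was at -0.034 and Tfrc at -0.013. That of Slc40a1 was 0.063 by library totals, 0.00098 with no low-count filter, 0.0094 without those males and -0.062 to 0.054 leaving out 1 library. The cause was not tested. Leaving out 1 library moved the Ftl1 to Fth1 ratio between -0.21 and -0.12, Tfrc over ferritin between 0.14 and 0.45, and Ireb2 to Aco1 between -0.26 and -0.14. An adjusted p of 0.0476 was reached for all 3 ratios without male replicate 4 (-0.21, 0.45 and -0.25) and for the last without male replicate 3. Adding pseudogene counts, chosen after seeing the data, gave -0.16 and 0.37 for the first and second ratio. By library totals the median of all genes was 0.06.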

Other observations

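Of 9 counted genes of the hepcidin axis, which sets iron supply for the whole body, 7 were tested and 0 called, and 6 of those had positive values (median log2 fold change 0.18). The hepcidin genes themselves, Hamp and Hamp2, were not among the counted genes. Smad4, a general signal carrier of the BMP and TGF-beta pathways, was at 31.5 ± 1.32 CPM in the females and 29.2 ± 5.67 CPM in the males, and each of the others averaged far less. Bmp2, an inducer of hepcidin, was at 2.57 ± 0.458 CPM in the females and 1.53 ± 0.516 CPM in the males, and Bmp6 at 1.91 ± 1.01 CPM in the females and 1.01 ± 0.547 CPM in the males (SD, n = 5 each; edgeR adjusted p = 0.506 for both). Bmp2 was the 1 gene of the 7 at an unadjusted p under 0.05 (0.0107 in edgeR), where 9.17% of all genes were. Erfe, the erythroblast hormone that lowers hepcidin, was at 1.22 ± 0.503 CPM in the females and 0.974 ± 0.388 CPM in the males. Of 5 ligase genes linked to the decay of iron regulatory protein 2, 4 had negative values, among them the Fbxl5 partners Rbx1 (-0.30) and Skp1 (-0.23) and the ligase Rchy1 (-0.18), and 0 stood at an unadjusted p under 0.05.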
